A study of Drosophila melanogaster with 185 samples.

Results

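Training was compared as a single term over 5 neuron classes of the study, grouped here as output neurons, with the neuron class as a block. The term asks whether aversive long-term memory training moved a gene on average over the classes. It does not ask whether every class moved in the same direction. Whether each class is a mushroom body output neuron was not tested. The comparison used 46 of the 101 libraries of the series, 24 from control and 22 from trained Drosophila melanogaster, and every member was taken by the class and training named in its label. DAL neurons (G0431-GAL4), V2 neurons (R71D08-GAL4) and V3 neurons (CG0239-GAL4) each gave 5 control and 5 trained libraries. The 3-86 neurons (3-86-GAL4) gave 5 control and 3 trained libraries, and the R27G01 neurons (R27G01-GAL4) gave 4 of each. All flies of these classes, controls included, carried UAS-eGFP and the GAL4 driver of their class in a w1118 background. They were reared at 25 C, and their ages are matched but not given in the sources used here. In each of 8 blocks separated by breaks of 10 min, trained flies smelled 3-octanol or 4-methylcyclohexanol together with 12 shocks of 5 s at 60 V, whereas control flies received the same shocks first and the odour afterwards. Neurons were recognised by green fluorescence and position and drawn into a patch pipette soon after training, 4 cells per library (12 for V2), so a class is only as pure as its driver line and the aspiration of cell bodies.

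In Drosophila, odours are carried into the mushroom body by Kenyon cells. Mushroom body output neurons collect the activity of Kenyon cell axons along the lobes and pass it to the rest of the brain. Punishment reaches the same synapses through dopaminergic neurons, and pairing odour with shock changes how strongly Kenyon cells drive individual output neurons. Memory that lasts for days after spaced training is known to require cAMP signalling, CREB-dependent transcription and new protein synthesis.

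Some libraries carried doubts before any comparison was made. The authors' sheet gives treatment codes without a key. All 3-86 controls have the code C, and the other controls have SO, apart from DAL control 2, whose code O no other member has. Whether these codes mark different handling of controls is not stated. The library 3-86 trained 4 is entered with the letter of the 3-86 controls. The libraries 3-86 trained 2 and 3-86 control 3 were not members: the 2 sequencing runs of each correlated at only r = 0.7104 and r = 0.7928 over genes, against 0.9932 to 0.9980 in the 33 members with 2 runs, and run 2 of the first matched run 1 of the second at r = 0.9972. The code in the library titles, whose meaning is not stated, was uneven between training groups. In V2 neurons all 5 trained libraries had code 8, while 3 of 5 controls had code 9. In DAL neurons 3 of 5 controls had code 11, and trained libraries had codes 8, 9 and 12. In R27G01 neurons the 4 trained libraries had code 2, as did 3 of 4 controls. Training and code cannot be fully told apart in these classes. V3 codes were even. Library totals ran from 3.83 to 17.3 M reads in controls (median 7.74 M) and from 3.77 to 11.5 M in trained libraries (median 7.33 M). Genes with at least 1 read numbered 7352 ± 694 (SD, n = 24) in controls and 7083 ± 1003 (n = 22) in trained libraries. The mean of the class differences, trained minus control, was −369 detected genes and −0.27 in the log2 total. A 2-sided permutation test within classes (100000 draws) gave unadjusted p = 0.0411 for the number of detected genes and 0.0137 for the total. Adjusted over 12 library measures, the p-values of that test were 0.247 and 0.164. The trained mean lay below the control mean most in 3-86 neurons (6918 and 6135 genes) and R27G01 neurons (6614 and 5728), as the plot of detected genes by class shows. The neuronal genes elav, n-syb, Syt1 and brp were detected in all 46 libraries, and the class names rest on driver and position, not on markers.

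No gene passed the test for an average training difference over the output neuron classes. Of 8565 genes tested, 0 passed an adjusted p of 0.05 in edgeR's quasi-likelihood test, so the share called was 0% in either direction. An unadjusted p under 0.05 was reached by 302 genes (3.53% of those tested), 110 with positive differences (1.28%) and 192 with negative ones (2.24%). Here and below a difference is the log2 ratio of trained to control after the block for class; its median over all genes was −0.10. Neuron class accounted for a median of 20.9% of a gene's variance in log2 counts per 1000000 reads (CPM), and training for 0.957%. These shares are not like for like, since class has 5 levels and training only control and trained. Neither share was set against its chance level. Other models called genes from the same libraries: DESeq2 called 28 higher and 40 lower, limma-voom 1 higher, and an equal mean of the class differences in edgeR 17 lower. Of the 68 genes called by DESeq2, 53 had reads in fewer than 23 of the 46 libraries. Only 42 of the 68 passed edgeR's expression filter and were tested there, 40 of them with an unadjusted p under 0.05.

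**Figure D1:**
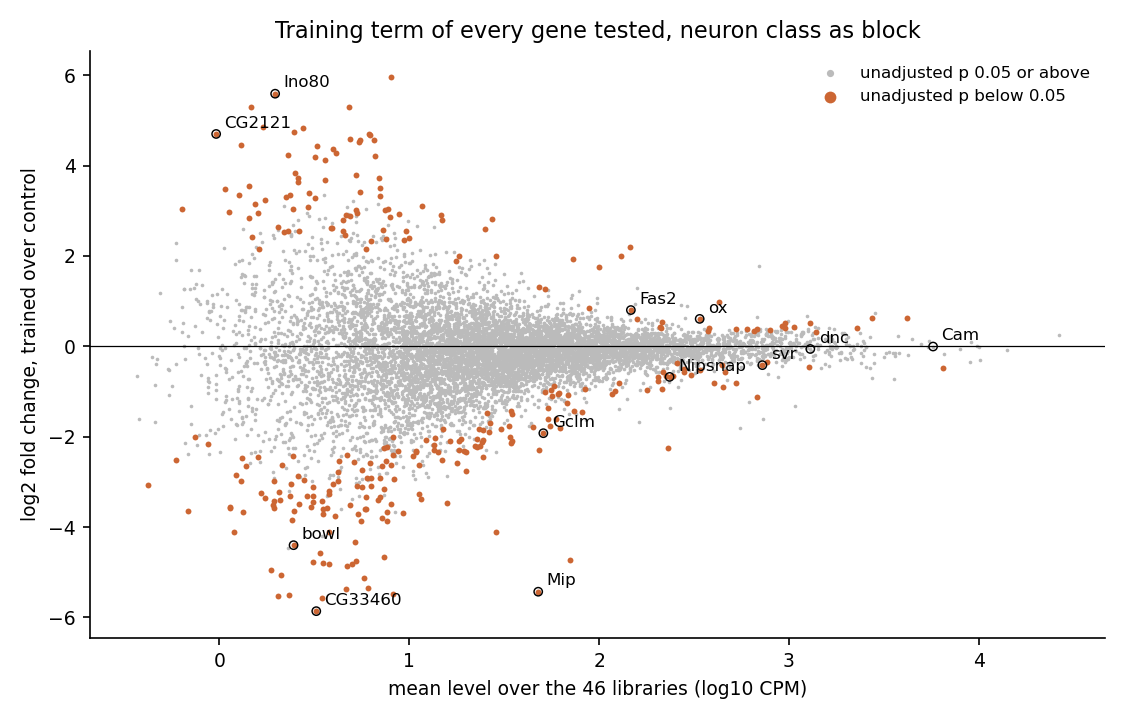
Mean level over the 46 output neuron libraries (CPM, log axis) against the difference between trained and control libraries (log2) for the 8565 genes tested, 1 point per gene; orange points have an unadjusted p under 0.05. The spread narrows towards abundant genes, and no gene passed the adjusted threshold.

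The data bounded many abundant transcripts and few rare ones. For 1655 genes (19.3%) the whole 95% interval of the difference lay within 2-fold. That held for 798 of the 914 genes with a mean of at least 200 CPM and for 801 of the 1877 between 50 and 200 CPM, but for only 40 of the 3531 between 10 and 50 CPM. Below 50 CPM, the intervals mostly reached beyond a 2-fold difference in at least 1 direction. The labels do not say whether the cells of a library came from 1 fly or several, so each p-value refers to the scatter among libraries, which may be partly technical.

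The 10 genes nearest the threshold were rare transcripts that most libraries lacked, and all missed it in edgeR, while DESeq2 called 6 of them. CG2121 had reads in 2 of 24 control libraries, at most 1.49 CPM, and in 7 of 22 trained libraries, at most 16.2 CPM in a 3-86 library (log2 difference 4.70 ± 1.10 SE, edgeR adjusted p = 0.316). CG9117 was read in 2 control and 7 trained libraries, the highest 4.30 CPM in a V3 control and 48.8 CPM in a 3-86 trained library (4.75 ± 1.13, adjusted p = 0.316). Obp8a, an odorant-binding protein gene, Ino80, a chromatin remodelling ATPase, and CG10469 were the next on the positive side, with reads in 4, 6 and 8 control and 7, 10 and 13 trained libraries. CG9117, Obp8a, Ino80 and CG10469 were called by DESeq2 (adjusted p = 0.0109, 4.31e-07, 0.00840 and 0.0159). For each of the 5 genes both groups held libraries without a read, so the groups overlapped at 0.

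On the negative side CG33460 was read in 9 control libraries, at up to 97.8 CPM in R27G01 control 3, and in 2 trained libraries at 1.73 and 0.277 CPM (log2 difference −5.86 ± 1.38, edgeR adjusted p = 0.316). CG12637 and CG6345 had reads in 8 and 12 control libraries against 2 and 3 trained libraries. CecB, a cecropin-type antimicrobial peptide gene, averaged 8.54 ± 23.5 CPM (SD, n = 24) in controls with reads in 8 libraries and 0.454 CPM in trained libraries with reads in 2. The zinc-finger transcription factor gene bowl was read in 10 control and 3 trained libraries. These 5 genes too had libraries without a read in both groups. DESeq2 called CG33460 and CG12637 (adjusted p = 0.00266 and 0.0253). In edgeR CG33460 passed the threshold without DAL trained 4, as did CG12637 without V2 trained 1, and no other single library brought a gene past it.

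Among genes above a mean of 50 CPM, 5 were picked after their values were seen, as those with the smallest p. Fas2 codes for fasciclin II, a homophilic cell adhesion molecule of axons and synapses that is one of the long-term memory genes listed here. In DAL neurons Fas2 stood at 109.5, 22.99, 56.8, 52.8 and 46.7 CPM in the control libraries and at 129.6, 161, 110.4, 90.6 and 133 CPM in the trained ones. In V3 neurons the controls were at 45.96, 150.2, 45.3, 77.3 and 46.3 CPM and the trained libraries at 106, 126, 154, 151 and 187 CPM. In both classes every trained library lay above the median of its controls, although 1 control in each overlapped the trained range. In V2 neurons, the class with the highest control median (156 CPM), the controls ranged from 126 to 217 CPM and the trained libraries from 140.2 to 279 CPM. The 3-86 controls were at 182, 118, 63.0, 47.8 and 120.7 CPM, and the trained libraries at 263, 579 and 29.99 CPM. R27G01 controls held 70.0, 110.5, 164 and 353 CPM and trained libraries 153, 191, 323 and 80.3 CPM. Groups overlapped in these classes too, most in R27G01.

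Over the 46 libraries Fas2 averaged 113.6 ± 75.1 CPM (SD, n = 24) in controls and 183.4 ± 112.5 CPM (n = 22) in trained libraries, a log2 difference of 0.80 ± 0.24 (95% interval 0.32 to 1.29). Its unadjusted p was 0.00158 and its edgeR adjusted p 0.754, whereas DESeq2 gave an adjusted p of 0.0184. In 19 of 22 trained libraries Fas2 lay above the control median of its class. The class differences were 0.98 ± 0.53 in DAL, 0.27 ± 0.53 in V2, 1.05 ± 0.53 in V3, 1.58 ± 0.59 in 3-86 and 0.30 ± 0.59 in R27G01 neurons, and the test for unequal differences between classes gave an edgeR adjusted p of 0.864. Leaving out any 1 library gave 0.65 to 0.89, and 0.87 without 3-86 trained 4.

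The other 4 picked genes were 3 of metabolism or mitochondria and 1 of unknown role. The gene ox, which codes for a small subunit of mitochondrial complex III, averaged 269.8 ± 140 CPM in controls and 413.9 ± 226 CPM in trained libraries (log2 0.61 ± 0.19, edgeR adjusted p = 0.754). All 3 trained 3-86 libraries (711, 752 and 967 CPM) lay above all 5 controls (193 to 435 CPM), and in V2 neurons 4 of 5 trained libraries (195 to 316 CPM) lay above the controls (127 to 198 CPM). In DAL and V3 neurons the ranges of ox overlapped, with differences of 0.01 and 0.12.

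Gclm, the modifier subunit of glutamate-cysteine ligase in glutathione synthesis, averaged 73.3 ± 59.7 CPM in controls and 26.4 ± 29.2 CPM in trained libraries (log2 −1.92 ± 0.62, edgeR adjusted p = 0.754; 0.0217 in DESeq2). In R27G01 neurons the 4 controls (195, 149, 62.0 and 63.3 CPM) stood clear of the 4 trained libraries (1.11, 0.380, 5.34 and 0.312 CPM). In V2 neurons 4 of 5 trained libraries lay below every control, while in DAL neurons the ranges overlapped, from 0.541 to 101.2 CPM in controls and from 20.4 to 120.2 CPM in trained libraries. Without the R27G01 class the Gclm difference was −1.29. Nipsnap, a gene for a conserved mitochondrial protein, averaged 279.5 ± 137 CPM in controls and 186.7 ± 99.3 CPM in trained libraries (log2 −0.68 ± 0.22, edgeR adjusted p = 0.754). It lay below all controls in 4 of 5 DAL trained libraries, and over all classes 2 of 22 trained libraries exceeded the control median of their class. CG34324 owed its control mean of 134.5 ± 581 CPM to few libraries, 3-86 control 4 above all, and averaged 0.554 CPM in trained libraries (log2 −4.72 ± 1.47, edgeR adjusted p = 0.754; 0.0239 in DESeq2).

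**Figure D2:**
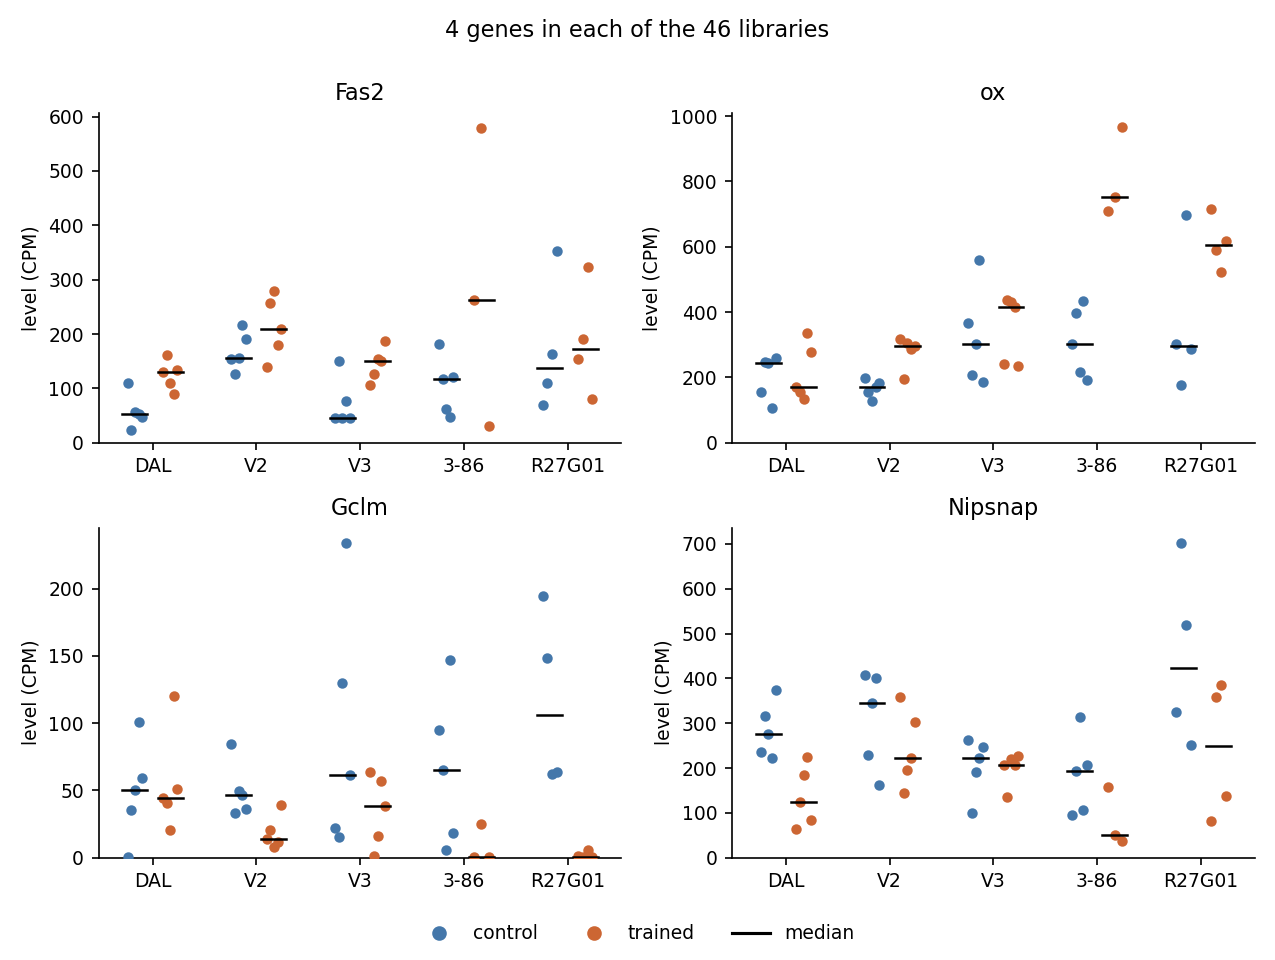
Levels of Fas2, ox, Gclm and Nipsnap in each output neuron library (CPM), by class and training; each point is 1 library. Fas2 and ox points of trained libraries sit mostly above the control median of their class and Gclm and Nipsnap points mostly below it, with overlap in most classes.

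Lists are described below by counts and medians, and the sign of a median often depended on the model: in 18 of the 31 lists it changed under at least 1 of 16 alternatives, in 6 under limma-voom. No list held a called gene, since none of the 8565 genes was called. The signalling pathways with the best known part in memory held no member with an unadjusted p under 0.05. Over all genes that share was 3.53%, so lists of 3 to 14 tested genes would hold few such members. Of 14 cAMP and protein kinase A genes tested, 5 differences were positive and 9 negative, with a median of −0.10 beside −0.10 over all genes (0.02 for the list in limma-voom). The calcium-stimulated adenylyl cyclase gene rut averaged 166 CPM in controls and 176 CPM in trained libraries (log2 −0.16, 95% interval −0.86 to 0.55). The cAMP phosphodiesterase gene dnc averaged 1287 and 1306 CPM (−0.06, interval −0.36 to 0.24), which leaves room for less than a 2-fold difference. For the catalytic subunit gene Pka-C1 the interval was −0.09 to 0.61. In 9 of the 14 the interval lay within 2-fold.

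CREB genes were measured less well. The memory-linked activator and repressor gene CrebB-17A averaged 9.85 CPM in controls and 18.4 CPM in trained libraries (log2 0.82 ± 0.62). Its interval reached from −0.41 to 2.06. Of 22 trained libraries 16 lay above the control median of their class, and the fitted difference was positive in all 5 classes. In R27G01 (0.41 ± 1.53) only 1 of 4 trained libraries lay above the controls, and 3 lay below all of them. CrebA, the gene of a related factor of secretory cells, stood at 0.02 and the coactivator gene nej at −0.06. Of 11 Ras-MAPK genes 3 differences were positive and 8 negative (median −0.11), with the GTPase gene Ras85D at −0.42 ± 0.43 and the MAP kinase kinase gene Dsor1 at −0.54 ± 0.82. Too few reads kept the MAP kinase gene rl out of the test.

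In the calcium and calmodulin group 2 of 10 differences were positive and 8 negative, with a median of −0.13. Calmodulin itself, Cam, was tightly bounded, at 5701 ± 2049 CPM in controls and 5794 ± 2366 CPM in trained libraries (log2 0.00, interval −0.24 to 0.23). The kinase gene CaMKII averaged 2152 and 1896 CPM (−0.29, interval −0.74 to 0.17). For 9 of the 10 genes the interval lay within 2-fold.

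Activity-regulated transcripts, which neuronal firing is known to induce in flies, had 8 positive and 7 negative differences and a median of 0.18. The median was −0.15 without DAL neurons and −0.01 without V2 neurons. The stripe gene sr, an early growth response transcription factor, averaged 71.1 ± 61.3 CPM in controls and 107 ± 69.0 CPM in trained libraries (log2 0.61 ± 0.40), above the class control median in 17 of 22. The nuclear receptor gene Hr38 averaged 74.0 and 79.95 CPM (−0.30 ± 0.64), and Arc1, a Gag-like gene of activity-dependent RNA transport, averaged 300.5 and 301 CPM. CG14024, from the same list, averaged 99.8 and 60.6 CPM (−1.46 ± 0.58, unadjusted p = 0.0148, edgeR adjusted p = 0.9995) and was lower in all 5 classes, most in R27G01, where controls held 4.20 to 88.6 CPM and trained libraries 0 to 4.36 CPM.

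Of 14 long-term memory genes 7 differences were positive and 7 negative (median 0.01). Besides Fas2, the receptor gene N stood at 0.16 ± 0.52 and the cell adhesion gene klg at −0.01 ± 0.26. RNA-binding and local translation genes had 5 positive and 12 negative differences (median −0.09). Among them orb2, whose product forms the self-sustaining assemblies tied to lasting memory, averaged 881 and 834 CPM (interval −0.50 to 0.33). The translational repressor genes Fmr1 and pum stood at 0.09 and 0.07, and 13 of the 17 intervals lay within 2-fold.

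**Figure D3:**
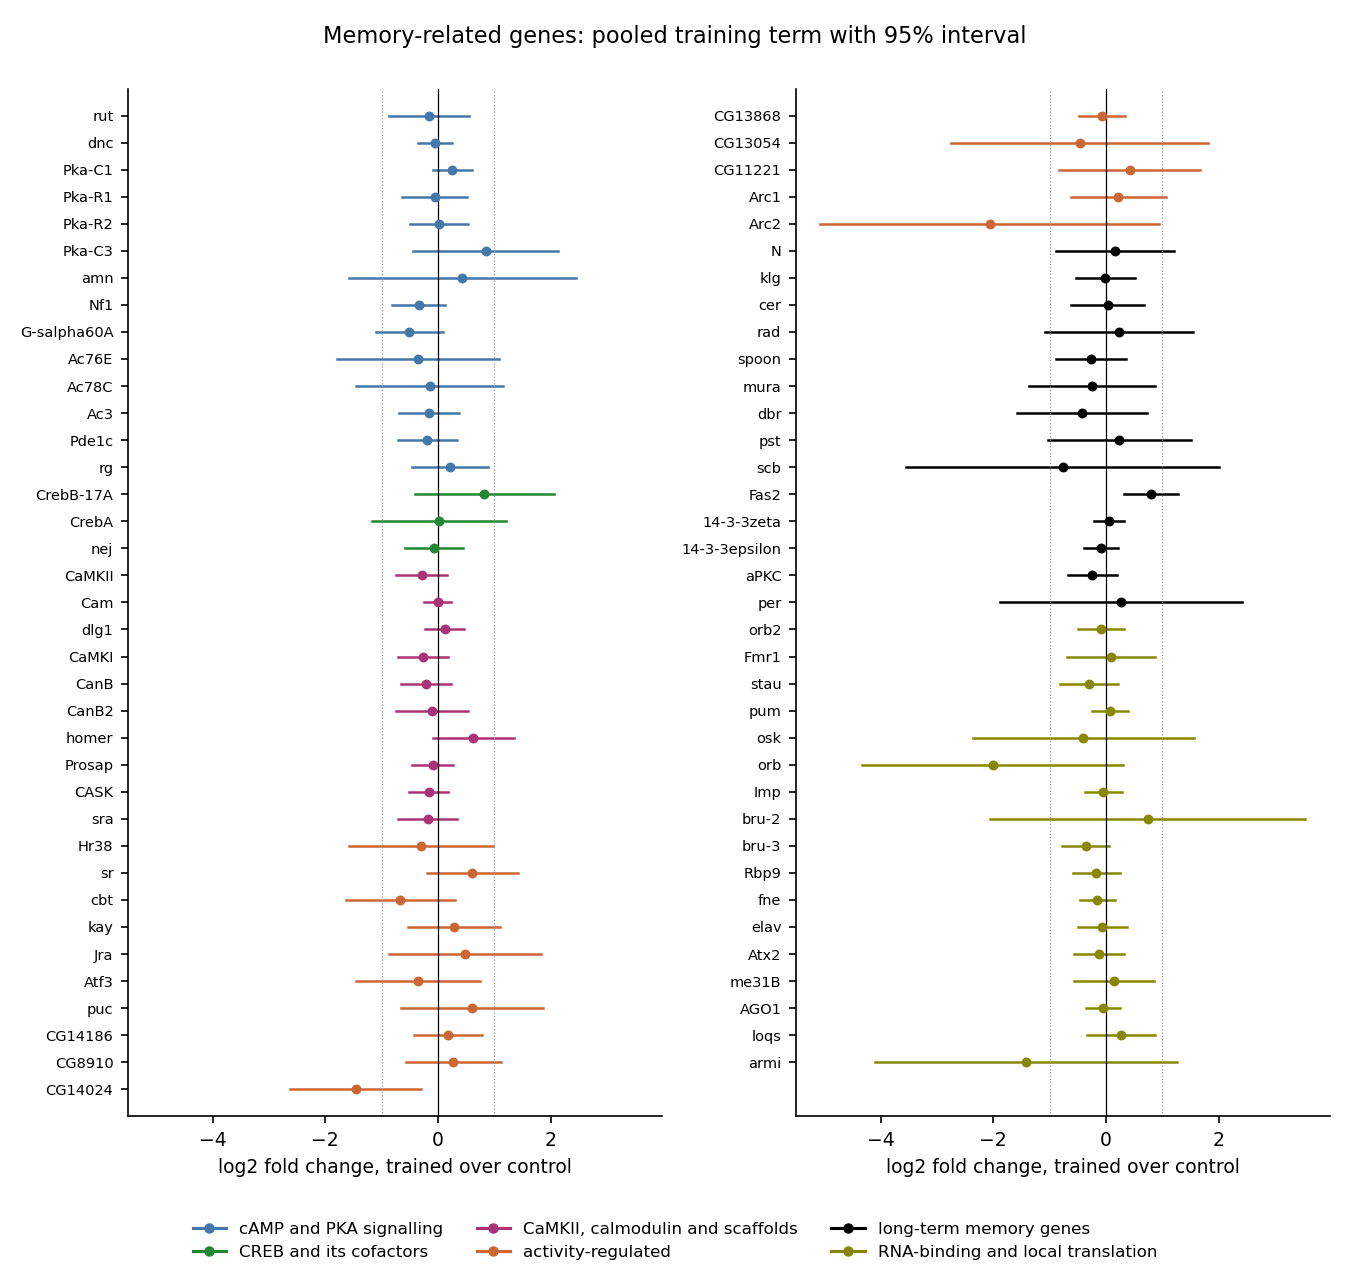
Difference between trained and control output neuron libraries (log2, points) with its 95% interval (bars) for the tested genes of 6 memory-related groups; dotted lines mark a 2-fold difference either way. Fas2 and CG14024 have intervals that exclude 0 before adjustment; the intervals of Cam and dnc lie within 2-fold.

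Genes of the release machinery at the synapse were abundant and well bounded. Of 15 synaptic vesicle and active zone genes 5 differences were positive and 10 negative (median −0.07), and 14 intervals lay within 2-fold. The vesicle SNARE gene n-syb averaged 1596 ± 498 CPM in controls and 1478 ± 490 CPM in trained libraries (log2 −0.13 ± 0.15). The active zone scaffold gene brp averaged 509 and 524 CPM (−0.14 ± 0.23).

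Genes of transmitter synthesis and transport had wider intervals, 1 of 13 within 2-fold. Of these 5 differences were positive and 8 negative (median −0.17; 0.03 in limma-voom). The vesicular acetylcholine transporter gene VAChT and the choline acetyltransferase gene Cha stood at −0.17 ± 0.47 and −0.24 ± 0.40. The vesicular glutamate transporter gene VGlut averaged 4352 and 4529 CPM (0.16, interval −0.32 to 0.65).

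Receptors for transmitters, like all genes tested, held no called gene. Nicotinic receptor subunits had 6 positive and 3 negative differences (median 0.08). In limma-voom 2 were positive and 7 negative (median −0.15). The subunit gene nAcRalpha-96Aa stood at 0.14 ± 0.90 and nAcRalpha-96Ab at 0.55 ± 0.40. Of 16 monoamine and muscarinic receptor genes 7 differences were positive and 9 negative (median −0.24). The dopamine receptor gene DopR, which fly aversive learning requires, averaged 187 ± 134 CPM in controls and 151 ± 118 CPM in trained libraries (−0.38, interval −0.95 to 0.20), and DopR2 averaged 40.0 and 76.9 CPM (0.51, interval −1.15 to 2.17). The octopamine receptor gene Oamb averaged 40.3 and 26.7 CPM (−1.998 ± 0.88, unadjusted p = 0.0276, edgeR adjusted p = 0.9995), with reads in 21 of 24 controls and 15 of 22 trained libraries; in R27G01 all 4 trained libraries had none while the controls ran from 0 to 16.6 CPM. Among 12 GABA and glutamate receptor genes 4 differences were positive and 8 negative (median −0.13), the GABA-A receptor gene Rdl at −0.15 with an interval of −0.53 to 0.23 and the related subunit gene Lcch3 at 0.27 ± 0.52.

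Neuropeptides and their receptors had 4 positive and 17 negative differences, a median of −0.52 (8 and 13 in limma-voom, median −0.17). The peptide precursor gene Nplp1 averaged 2049 ± 4426 and 2209 ± 6097 CPM (log2 −0.23 ± 0.36), and npf had reads in 14 control and 13 trained libraries (−0.62 ± 1.16). Mip, the myoinhibitory peptide precursor, averaged 89.8 ± 237 CPM in controls and 1.92 ± 4.12 CPM in trained libraries (−5.43 ± 1.74, unadjusted p = 0.00323, edgeR adjusted p = 0.754, DESeq2 adjusted p = 0.0159). Its control mean came from few libraries, the highest at 958.5 CPM, since the medians were 0.0414 CPM in controls and 0.1995 CPM in trained libraries.

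Of 7 peptide processing genes 1 difference was positive and 6 were negative (median −0.18). The prohormone convertase gene amon stood at −0.16 ± 0.21. The carboxypeptidase gene svr averaged 818 ± 273 CPM in controls and 623 ± 219 CPM in trained libraries (−0.42 ± 0.16, interval −0.73 to −0.10, unadjusted p = 0.0103, edgeR adjusted p = 0.9995). All 5 trained V2 libraries, at 452 to 575 CPM, lay below all 5 V2 controls, at 747 to 1166 CPM, whereas the R27G01 ranges overlapped with a positive difference of 0.41. Ion channel genes had 7 positive and 16 negative differences (median −0.07); the sodium channel gene para averaged 666 and 681 CPM (0.01 ± 0.23) and the potassium channel gene Sh 1652 and 1657 CPM (−0.04 ± 0.16).

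Ribosomal protein genes were the most one-sided of the 31 lists, with small differences. Of 79 tested, 74 differences were positive and 5 negative, against 3611 positive and 4954 negative over all genes; the median was 0.24, the range −0.11 to 0.51, and 78 of the 79 intervals lay within 2-fold. Their summed level ran from 25079 to 199283 CPM in controls and from 20256 to 194892 CPM in trained libraries, and the permutation test within classes on that sum gave an adjusted p of 0.616. The count stayed at 65 or more of 79 positive without any 1 class, with a median of 0.36 without DAL and 0.14 without R27G01. RpL10 stood at 0.15 and RpL10Ab at 0.26, and 3 members had an unadjusted p under 0.05, RpL27A (0.51 ± 0.23), RpS23 (0.45 ± 0.22) and RpS25 (0.41 ± 0.19), a share close to the 3.53% of all genes. These genes share every library's depth and CPM scale, so the 79 values are not independent.

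Mitochondrial ribosomal protein genes had 30 positive and 41 negative differences (median −0.04; 0.03 in limma-voom), with mRpL1 at −0.72 and mRpL10 at −0.43. Proteasome subunits had 19 and 9 (median 0.05), with Pros25 at 0.18 and Pros26 at 0.02. Vacuolar proton pump genes had 8 and 11 (median −0.01; 0.02 with the size factors of DESeq2). In that list Vha100-1, the neuronal membrane subunit of synaptic vesicles, averaged 282 ± 109 CPM in controls and 228 ± 85.9 CPM in trained libraries (log2 −0.37 ± 0.17, unadjusted p = 0.0360), and Vha100-2 stood at 0.23.

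Of 12 glycolysis genes 7 differences were positive and 5 negative (median 0.08). The hexokinase gene Hex-A averaged 457 and 518 CPM (log2 0.19 ± 0.16), Pgi 309 and 312 CPM, and the phosphofructokinase gene Pfk 132 and 189 CPM (0.60 ± 0.27, unadjusted p = 0.0287). Heat-shock genes had 12 positive and 5 negative differences (median 0.22), which was −0.01 with the code in the library titles as a further block. Hsp83, the Hsp90 chaperone gene, averaged 666 and 594.5 CPM (−0.37 ± 0.22). Clock genes had 4 positive and 3 negative differences (median 0.05; −0.05 in limma-voom), with per at 0.27 ± 1.08 and tim at −0.46 ± 0.59.

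**Figure D4:**
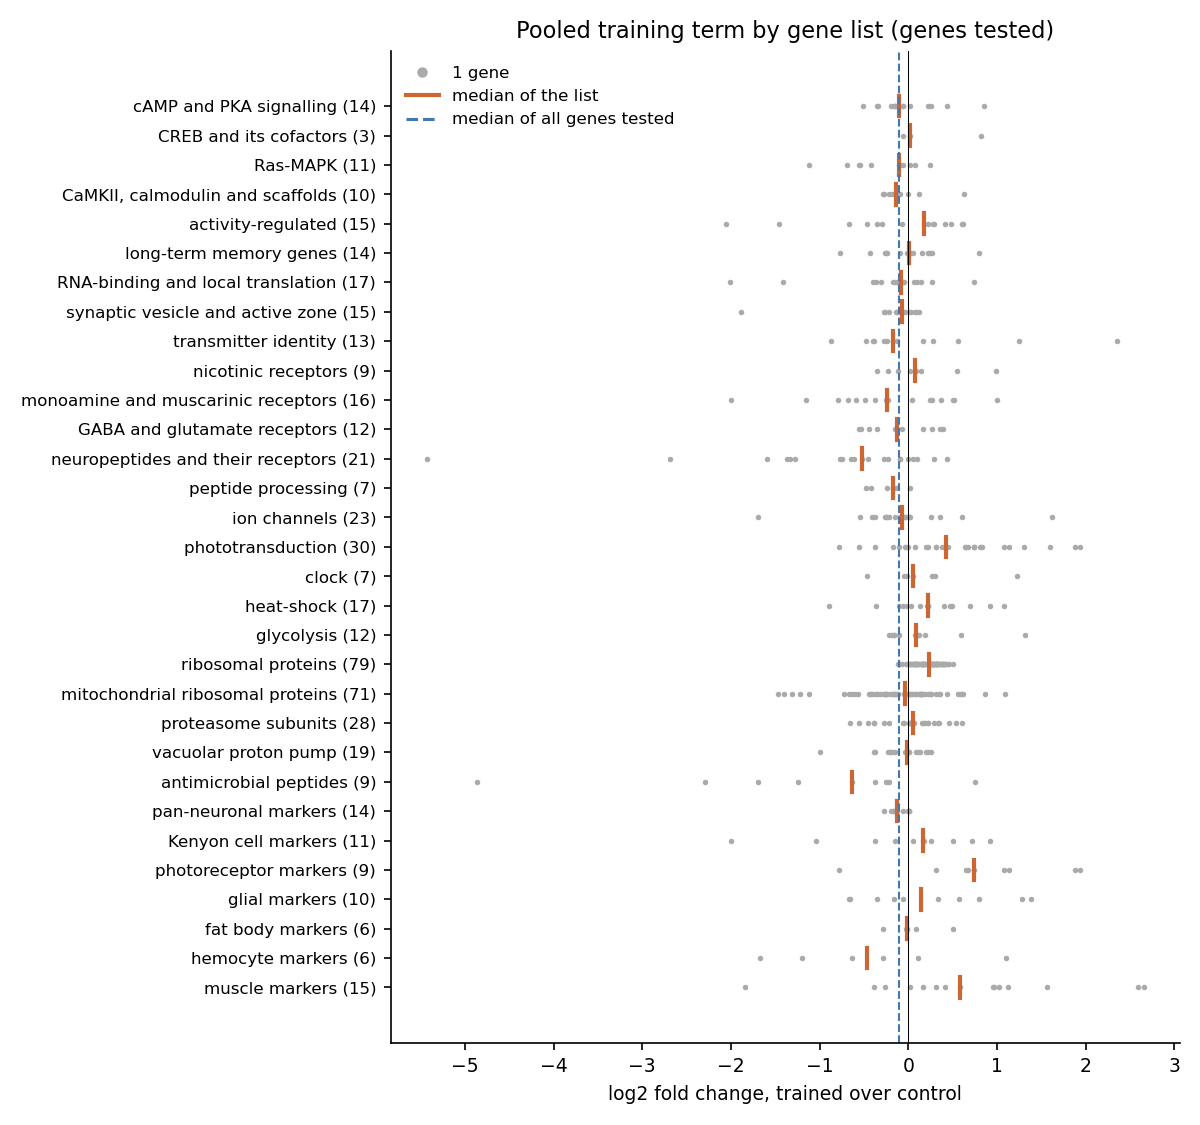
Difference between trained and control output neuron libraries (log2) for each tested gene of the 31 gene lists (points), with the median of each list (bar) and of all 8565 genes (dashed line, −0.10). Ribosomal protein genes cluster tightly around 0.24, while photoreceptor, muscle, hemocyte and antimicrobial peptide genes spread widely.

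Transcripts of other cells were present in most libraries, at levels that varied far more among libraries than between the control and trained medians. Classes differed too. The median fat body sum was 2519 CPM in V2 trained and 63051 CPM in R27G01 trained libraries. In such bulk samples, fewer cells of a type and less RNA per cell cannot be told apart. Photoreceptor markers had 8 positive and 1 negative difference (median 0.74; 0.35 without V3 and 1.38 without V2), and their summed level ran from 20.6 to 15735 CPM in controls and from 115 to 48160 CPM in trained libraries. Phototransduction genes, which overlap that list, had 22 positive and 8 negative differences (median 0.43; 17 and 13 in limma-voom, median 0.12), with the rhodopsin gene ninaE at 1668 ± 2256 CPM in controls and 4085 ± 7891 CPM in trained libraries (0.74 ± 0.66), Rh2 at −0.18 ± 0.68 and the photoreceptor surface gene chp at 1.93 ± 0.93 (unadjusted p = 0.0429). Muscle markers had 12 positive and 3 negative differences (median 0.59; 1.12 in limma-voom), the summed level running from 15.4 to 1832 CPM in controls and from 31.5 to 7610 CPM in trained libraries; the actin gene Act79B stood at 2.59 ± 1.05 (unadjusted p = 0.0165) and the myosin heavy chain gene Mhc at 0.02 ± 0.91.

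Fat body markers had 2 positive and 4 negative differences (median −0.02; 4 and 2 with the size factors of DESeq2, median 0.00) and reached high levels, with sums of 2708 to 78730 CPM in controls and 782 to 138626 CPM in trained libraries. The yolk protein gene Yp1 averaged 9728 ± 7913 and 10262 ± 10942 CPM, was read in every library, and Yp2 likewise differed by −0.02. Hemocyte markers had 2 positive and 4 negative differences (median −0.46; sums 1.32 to 2493 and 16.4 to 3618 CPM), with Hml at −1.67 ± 0.88. Antimicrobial peptide genes had 1 positive and 8 negative differences (median −0.64), with AttA at −0.25 ± 1.05 and AttB at 0.75. The direction of this list depended on the model, since limma-voom gave 8 positive and 1 negative (median 0.87), the title code as a further block 10 and 4 (0.58), and the summed level a difference of 0.16.

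Glial markers had 5 positive and 5 negative differences (median 0.14; sums 175 to 1370 and 117 to 2067 CPM); the glial master gene gcm had no read in any library and repo averaged 3.50 and 6.86 CPM. Kenyon cell markers had 7 positive and 4 negative differences (median 0.16; sums 784 to 5692 and 562 to 11282 CPM), with mub at 0.18 and ey at 0.16. Pan-neuronal markers had 3 positive and 11 negative differences (median −0.13; sums 6183 to 42255 and 7388 to 44123 CPM), with elav at −0.06 ± 0.22. Permutation tests within classes gave adjusted p of 0.479 or more for every one of these sums, and the part of transcripts from other cells in the results of single genes was not tested.

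Classes were next compared with each other, since opposite responses would cancel in the pooled term. In a fit with 10 groups of class and training, 0 of 9573 genes (0%) had differences that varied between classes at an edgeR adjusted p of 0.05; 1332 (13.9%) had an unadjusted p under 0.05, and DESeq2 called 203. The 3 genes with the smallest p, all short of the threshold, were CG7787 (adjusted p = 0.102), CG17272 and CG11148. In DAL, V2 and V3 neurons taken singly no gene passed (0% of 9573 in each), with 708 (7.4%), 562 (5.87%) and 530 genes (5.54%) at an unadjusted p under 0.05, while DESeq2 called 79 higher and 115 lower genes in DAL, 177 and 108 in V2 and 61 and 102 in V3.

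The 3-86 and R27G01 neurons did hold genes that passed within the class. In 3-86 neurons 4 genes were higher (0.0418%) and 25 lower (0.261%) in the trained libraries, and 1570 of 9573 had an unadjusted p under 0.05. The phospholipid scramblase gene scramb2 rose from a mean of 0.758 to 78.1 CPM (log2 6.85 ± 1.38, edgeR adjusted p = 0.0149). Among genes that fell, the glucose transporter gene Glut1 went from 165.5 to 10.97 CPM (−3.84 ± 0.75, adjusted p = 0.0149) and the chromatin remodeller gene kis from 464 to 87.1 CPM (−2.28 ± 0.46, adjusted p = 0.0149). The RNA-editing enzyme gene Adar went from 314 to 17.6 CPM (−3.96 ± 0.90, edgeR adjusted p = 0.0252). CG17272 stood at 72.3, 92.1, 205.7, 23.5 and 115.5 CPM in controls and at 0.576, 0 and 0 CPM in trained libraries (−8.81 ± 1.63, adjusted p = 0.0134), with no overlap. In the other 4 classes CG17272 was present in trained libraries at up to 195 CPM.

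In R27G01 neurons 8 genes were lower (0.0836%) and none higher (0%). An unadjusted p under 0.05 was reached by 1472 of 9573 genes in either direction, of which 429 were higher (4.48% of those tested). DESeq2 called 319 higher and 999 lower genes. CG7787 was at 34.5, 45.1, 88.2 and 17.9 CPM in R27G01 controls and at 0.138, 0.127, 0.198 and 0 CPM in trained libraries (log2 −8.38 ± 1.82, edgeR adjusted p = 0.0361). It was also called in 3-86 neurons, where controls reached 95.5 CPM and none of the 3 trained libraries had a read, while in V2 neurons the trained libraries held 27.3 to 57.2 CPM and the controls 1.98 to 53.9 CPM. Chro, a chromosomal and spindle matrix protein gene, went from 24.8 to 0.149 CPM (−7.49 ± 1.61) and mus210, the fly homologue of the DNA repair gene XPC, from 38.0 to 0.237 CPM (−6.92 ± 1.51); both had an edgeR adjusted p of 0.0361.

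Trained libraries detected fewer genes on average in both classes. The 3-86 controls detected 6110 to 7478 genes and the trained libraries 5822 to 6667; the R27G01 controls detected 5917 to 7063 and the trained libraries 5402 to 6094. In DAL and V3 neurons, which held no called gene, the trained means were lower too, 7432 against 7635 and 7506 against 7730, while in V2 neurons the trained mean was higher, 7963 against 7714. Of the 29 genes called in 3-86 neurons, CG17272 and CG9267 passed in every fit without 1 library, and none passed once both set-aside 3-86 libraries were kept as labelled. Counted over all genes, 3-86 neurons had 11 lower and 2 higher calls without 3-86 trained 4 and 72 lower calls without 3-86 trained 1. Of the 8 in R27G01 neurons, none passed in every fit without 1 library. Over all genes these fits called between 0 (without DAL control 5 or R27G01 control 1) and 78 lower genes (without R27G01 trained 3) in that class. The part of the lower detection in these calls was not tested.

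**Figure D5:**
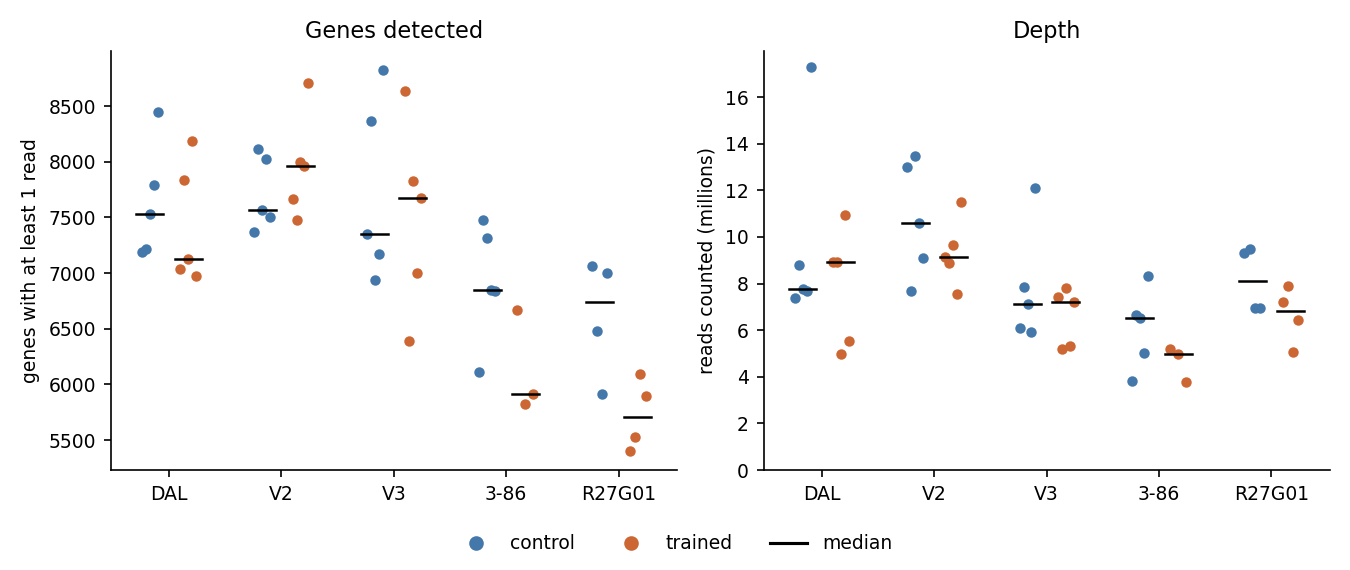
Number of genes with at least 1 read and total reads (M) in each output neuron library, by class and training; each point is 1 library. Trained 3-86 and R27G01 libraries detect fewer genes than most controls of their class, and the other classes overlap.

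Output neurons were then set against Kenyon cells in a fit of 70 libraries with a training term for each. The 24 Kenyon cell libraries were of gamma cells (titles starting NP1131) and alpha/beta cells (titles starting c739), control and trained. The test asks whether a gene's training difference in output neurons departs from that in Kenyon cells. Of 9128 genes, 0 departed upward (0%; 131, or 1.44%, at an unadjusted p under 0.05; 33 by DESeq2) and 1 downward (0.011%). That gene, CG17219, which RefSeq lists under the synonym METTL18, a protein histidine methyltransferase, was read in 11 of 24 output neuron controls and in 1 of 22 trained libraries.

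Most of those CG17219 values were below 1 CPM. In output neuron controls only R27G01 control 1 (31.2 CPM), R27G01 control 4 (24.0 CPM), V3 control 5 (39.6 CPM) and DAL control 2 (4.44 CPM) exceeded 1 CPM, and the trained library was V3 trained 1 at 6.45 CPM. In Kenyon cells it was read in 1 of 12 controls, at 0.0437 CPM, and in 5 of 12 trained libraries, at up to 2.91 CPM. Kenyon cell libraries were made from many more cells than output neuron libraries, which held 4 cells each (12 for V2). Detection of a rare transcript is therefore not like for like between them, and the part of cell number in this call was not tested. The difference of differences was −8.97 ± 1.79 (95% interval −12.5 to −5.40, edgeR adjusted p = 0.0353); DESeq2 gave an adjusted p of 0.225, and the call was lost in 24 of the 70 edgeR fits without 1 library, among them each fit without a trained DAL or R27G01 library. The next genes, CG14154 and CG14563, had reads in 0 of 24 output neuron controls and in 4 and 3 of 22 trained libraries, with adjusted p of 0.151 and 0.227.

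Training in Kenyon cells alone called 0 genes in the same fit (0%; 103, or 1.13%, at an unadjusted p under 0.05). Fas2 stood at −0.23 ± 0.27 in Kenyon cells, and its output neuron difference exceeded that by 1.06 ± 0.33 (unadjusted p = 0.00208, edgeR adjusted p = 0.432). Fas2 had been picked for its small p in the output neuron libraries, which this comparison uses again, so its unadjusted p is no separate evidence.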

How the data were processed

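Raw whole-number counts for every gene, made by the authors, were deposited run by run. Per the submitters' processing notes the tools named are cutadapt, TopHat2, Bowtie, Bowtie2, HTSeq and DESeq2 1.4 with the BDGP5 build. Per the labels' protocols, cDNA was made with a SMARTer kit and amplified in 15 and then 12 rounds, with no molecular identifiers. Runs of a library were summed, giving 46 libraries over 15682 genes. The counts were tested with edgeR 4.0.16 (R 4.3.3; TMM, expression filter on the design, robust quasi-likelihood fit) with class as a block, and p-values were adjusted by Benjamini-Hochberg over all genes tested, at a threshold of 0.05. DESeq2 1.42.0, limma-voom 3.58.1, other filters, blocks and sample sets were alternatives. CPM is a gene's count per 1000000 counted reads of the library. The fits were checked on simulated counts first.

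The libraries and the 31 gene lists were chosen with earlier results of these data known. The genes named are the 5 nearest the threshold in each direction, the first 2 tested members of each list, and the 3 with the smallest p in the other comparisons; further genes were added after their values were seen. The genes called within classes that are named, the genes above 50 CPM and list members with an unadjusted p under 0.05 belong to those. A difference within the intervals given was not detectable at this depth. Roles of genes are background knowledge.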

Additional observations from a re-analysis of the deposited data

Results flagged for a closer look

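Of 117 library values examined within groups of 4 or 5, 7 stood far from the rest of their group, and chance alone sets apart about 1 group in 20. DAL control 5 held 17.3 M reads, against 8.79 M in the next DAL control. The summed antimicrobial peptide level was 3214 CPM in DAL control 3, against 191 CPM in the next DAL control, and 4.05 CPM in V2 trained 1, against 18.9 CPM in the next V2 trained library. The summed pan-neuronal level was 7388 CPM in R27G01 trained 4, against 21498 CPM in the next of its group. The summed photoreceptor level was 473 CPM in DAL control 5, against 4534 CPM in the next, and 15735 CPM in V3 control 5, against 1183 CPM. The summed hemocyte level was 3618 CPM in DAL trained 2, against 108 CPM in the next DAL trained library.

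CG17219 differed between output neurons and Kenyon cells in its training difference, by −8.97 on the log2 scale in edgeR. The report gives its reads and the unequal cell numbers of these libraries.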

How the results depend on the processing

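The pooled count of 0 was 28 higher and 40 lower in DESeq2, 1 higher in limma-voom, 1 lower without the DAL class and 17 lower with an equal mean of the class differences; it was 0 to 1 lower and 0 higher without each library in turn. With the code in the library titles as a further block it stayed at 0. The median of all genes was −0.10 in edgeR and 0.02 in DESeq2. Unequal training between classes was called for 203 genes by DESeq2 and 2 above a mean of 50 CPM, and for 0 to 10 without 1 library, 10 without 3-86 trained 1. Against Kenyon cells DESeq2 called 33 higher and 37 lower, the 50 CPM filter 0 lower, and fits without 1 library 0 to 1 higher and 0 to 4 lower, with 4 without 3-86 trained 1. Within classes DESeq2 called 79 higher and 115 lower in DAL, 177 and 108 in V2, 61 and 102 in V3, 247 and 1303 in 3-86 and 319 and 999 in R27G01. The 50 CPM filter gave 48 lower in 3-86, and 1 higher and 13 lower in R27G01. With both set-aside 3-86 libraries kept, 3-86 had 0 higher and 0 lower and R27G01 1 lower. Without 1 library 3-86 had 2 to 8 higher and 11 to 72 lower, R27G01 0 to 4 higher and 0 to 78 lower, and DAL, V2 and V3 0 of either. In R27G01 the 0 came without DAL control 5 or R27G01 control 1, the 78 without R27G01 trained 3 and the 4 higher without R27G01 control 4; in 3-86 the 11 came without 3-86 trained 4 and the 72 without 3-86 trained 1. The causes were not tested.

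Of 1217 values of named genes under other settings, 1093 kept direction and call, 12 gained a call, 1 lost it and 111 changed sign without a call; 0 called values reversed. The study used pairs of flies, but no label says which libraries form a pair, and the main test treated libraries as unpaired. With class and the letter of the authors' sheet as a replicate block, chosen after seeing the data, 0 genes were higher and 0 lower. Of 10121 genes, 687 had an unadjusted p under 0.05 in that edgeR fit. Same-letter V3 pairs correlated at 0.0243 to 0.142 (n = 5) and others at −0.132 to 0.125 (n = 20). Of the V3 controls, 3 correlated best with the trained library of their letter.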

Other observations

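Rcd7, a gene named from a fly cell screen of centrosomes, was the gene limma-voom alone called. It was picked here for that call. It had reads in 4 of 24 control and 16 of 22 trained output neuron libraries, and averaged 2.44 ± 7.73 CPM (SD, n = 24) in controls and 13.9 ± 32.9 CPM (n = 22) in trained libraries. In edgeR its log2 difference was 2.86 ± 1.27 with an unadjusted p of 0.0288 and an adjusted p of 0.9995. The transcription factor gene pnr, called by DESeq2 over all classes (log2 −8.14, adjusted p = 0.0247) and by edgeR without the DAL class (adjusted p = 0.0499), had reads in 8 control and 2 trained libraries, and its difference was 9.07 ± 3.22 in DAL neurons and negative in the other 4 classes.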
